A study of Homo sapiens with 30 samples.

Results

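The EGF receptor family and its ligands were examined in HT29, a human cell line established from a colorectal adenocarcinoma, treated with ethanol extracts of traditional herbal formulas. The 10 genes were the rows of the gene count table whose Ensembl identifiers mapped to the symbols of 5 ligands (AREG, EREG, TGFA, HBEGF, BTC), 3 receptors (EGFR, ERBB2, ERBB3) and 2 inhibitors of the receptors (ERRFI1, LRIG1), of 60675 rows in all. All 10 were found, and all 10 passed the filter on low counts. RNA was sequenced in 30 libraries from 13 groups, each a 24 h treatment. Soshiho-tang and Yijin-tang were given at 500, 100 and 20 µg/mL with 3 libraries per dose, Okbyeongpung-san at the same doses with 2 libraries per dose, and Soyo-san at the same doses with 1 library per dose, all as 70% ethanol extracts. The last group was vehicle (DMSO, 3 libraries). The sample titles name batch D for every Soyo-san library and 1 Okbyeongpung-san library per dose, and batch E for all others. The labels give the solvent as 0.1% DMSO and the design text as 2%, and the design text states that extracts with an IC20 under 500 µg/mL were given at that IC20 and its dilutions, so doses are those of the labels and may be lower. The labels do not say that libraries of a group came from separate cultures, so p-values measure the spread between these libraries, which may be technical.

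EGFR, ERBB2 and ERBB3 are receptor tyrosine kinases that pair with each other when a ligand binds, and the pairs signal through the RAS, RAF and ERK kinases and through PI3K. The ligands are made as membrane-bound precursors that proteases such as ADAM17 cut free, so that a colorectal epithelial cell can act on its own receptors and on its neighbours'. ERRFI1 (MIG6) binds and inhibits the kinase of active EGFR, LRIG1 lowers the amount of receptor at the membrane, and several ligand genes and ERRFI1 are known to be induced by the ERK signal itself.

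The libraries held 18.5 to 36.2 M counts (median 24.2 M). The 10 markers of colorectal epithelium had counts in every library, with KRT8 between 5490 and 7510 counts per M (CPM) and EPCAM between 447 and 575 CPM. KRT8 and KRT18 (3630 to 4670 CPM) made up most of the CPM of the 10. CDX1 (0.372 to 1.21 CPM), CDX2 (2.62 to 4.91 CPM) and CEACAM5 (5.23 to 11.9 CPM) were low among them. The markers of other cells were also low. The leukocyte gene PTPRC reached at most 0.11 CPM, and CD3E was at 0 in 29 of 30 libraries. The fibroblast genes COL1A2 and DCN were at 0 in 28 and 24 libraries, and VWF of endothelium reached at most 0.0918 CPM. CD68 lay between 4.2 and 8.67 CPM, PECAM1 between 0.749 and 2.08 CPM and COL1A1 between 0.743 and 2.51 CPM. With Soshiho-tang at 500 µg/mL the sum of the 2 endothelium markers was 1.69 to 2.11 CPM, against at most 1.48 CPM at 20 µg/mL and 1.08 to 1.65 CPM in vehicle. The sum of the 3 fibroblast markers was 0.743 to 1.06 CPM at 500 µg/mL, against higher values of up to 1.65 CPM in every library at 20 µg/mL and 1.32 to 2.79 CPM in vehicle. The sum of the 10 epithelium markers was 12200 to 12800 CPM, against 11100 to 12000 CPM and 12100 to 14100 CPM, and that of the 3 leukocyte markers was 5.40 to 6.32 CPM, against 4.53 to 6.46 CPM and 5.15 to 8.67 CPM. The first 3 sums thus did not overlap between 500 and 20 µg/mL of Soshiho-tang, and their part in the results was not tested. The vehicle libraries differed more from each other than most replicates did. The chi-square per degree of freedom over genes was 11.2 to 20.6 for their pairs, against 2.41 to 10.4 for pairs within extract groups. It was not adjusted for depth, and vehicle library 1, in the pairs at 20.6 and 20.2, was the deepest (36.2 M counts). The vehicle libraries also carry library names of a set of their own, so a difference from vehicle and one between library sets cannot be told apart. Each extract dose is therefore given against vehicle and, where possible, against the 20 µg/mL dose of the same extract.

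The ligand genes with the largest differences between 500 and 20 µg/mL of Soshiho-tang, EREG and AREG, lie side by side on chromosome 4. EREG spans chr4:74365143-74388751 and AREG chr4:74445134-74455009, both on the plus strand of GRCh38, with 79991 bases between their starts and no protein-coding gene between them in GENCODE release 29. BTC, another ligand gene on chromosome 4, lies at chr4:74744759-74794686 on the minus strand. The receptors lie at chr7:55019021-55211628 (EGFR), chr17:39687914-39730426 (ERBB2) and chr12:56076799-56103505 (ERBB3), all on the plus strand, and TGFA (chr2:70447280-70554193), HBEGF (chr5:140332843-140346631), ERRFI1 (chr1:8004404-8026308) and LRIG1 (chr3:66378797-66501263) on the minus strand. The 250 bases before each start are shown because both neighbours were called in the comparisons of Soshiho-tang at 500 µg/mL. Of the 10 genes, 9 had a window in the promoter table used. The windows shown are RefSeq sequence of GRCh38.p14, plus strand, from chr4:74364895-74365144 for EREG and chr4:74444886-74445135 for AREG, and capitals mark matches to the motifs searched:
EREG: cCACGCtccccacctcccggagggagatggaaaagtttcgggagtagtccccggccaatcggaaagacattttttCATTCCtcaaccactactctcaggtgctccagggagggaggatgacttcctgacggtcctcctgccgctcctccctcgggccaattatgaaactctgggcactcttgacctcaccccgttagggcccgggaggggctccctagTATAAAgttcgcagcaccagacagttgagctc
AREG: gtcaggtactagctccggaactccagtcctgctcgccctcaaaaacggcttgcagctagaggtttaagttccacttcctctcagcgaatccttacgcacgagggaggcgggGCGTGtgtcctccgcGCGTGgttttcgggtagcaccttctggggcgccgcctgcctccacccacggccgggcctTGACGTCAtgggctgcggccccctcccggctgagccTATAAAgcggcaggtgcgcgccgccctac

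The 5 motifs, picked with earlier results of these data known, were searched on both strands. A TATA box (TATAAA) began 32 bases before the EREG start and 29 bases before the AREG start, and 10.7% of the 35116 RefSeq promoter windows of that length held one. AREG had a cAMP response element (TGACGTCA, in 1.65% of windows) beginning 65 bases before its start and the core of the aryl hydrocarbon receptor motif (GCGTG, in 32.2% of windows) at 139 and 124 bases before it. EREG had that core, on the other strand as CACGC, at 249 bases before its start, and a TEAD motif (GGAATG, in 11.9% of windows), on the other strand as CATTCC, at 175 bases before it. The AP-1 motif (TGANTCA, in 6.57% of windows) matched neither window. No matches overlapped. A match is a run of letters and not a measured binding site.

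With Soshiho-tang at 500 µg/mL, 4 of the 5 ligands, EGFR and ERRFI1 rose against both its own 20 µg/mL dose and vehicle, while LRIG1 and ERBB3 fell against both. A gene was called at a Benjamini-Hochberg adjusted p below 0.05 in edgeR's quasi-likelihood test, fitted over all genes. Against its own 20 µg/mL dose, 9 of the 10 genes were called, 6 higher and 3 lower, where 26.8% of the 15882 genes tested were called, 13.3% higher and 13.5% lower. Their median log2 fold change was 0.53, against -0.01 over all genes tested. Against vehicle, 9 genes were called, 7 higher and 2 lower, where 39.2% of genes were called, 21% higher and 18.3% lower, and the median was 0.38 against -0.01 over all genes. The 10 genes were chosen with earlier results of these data known, so these counts and medians describe the set and do not test it. In bulk RNA, a change in the number of cells of a kind and a change in the RNA per cell cannot be told apart.

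**Figure D1:**
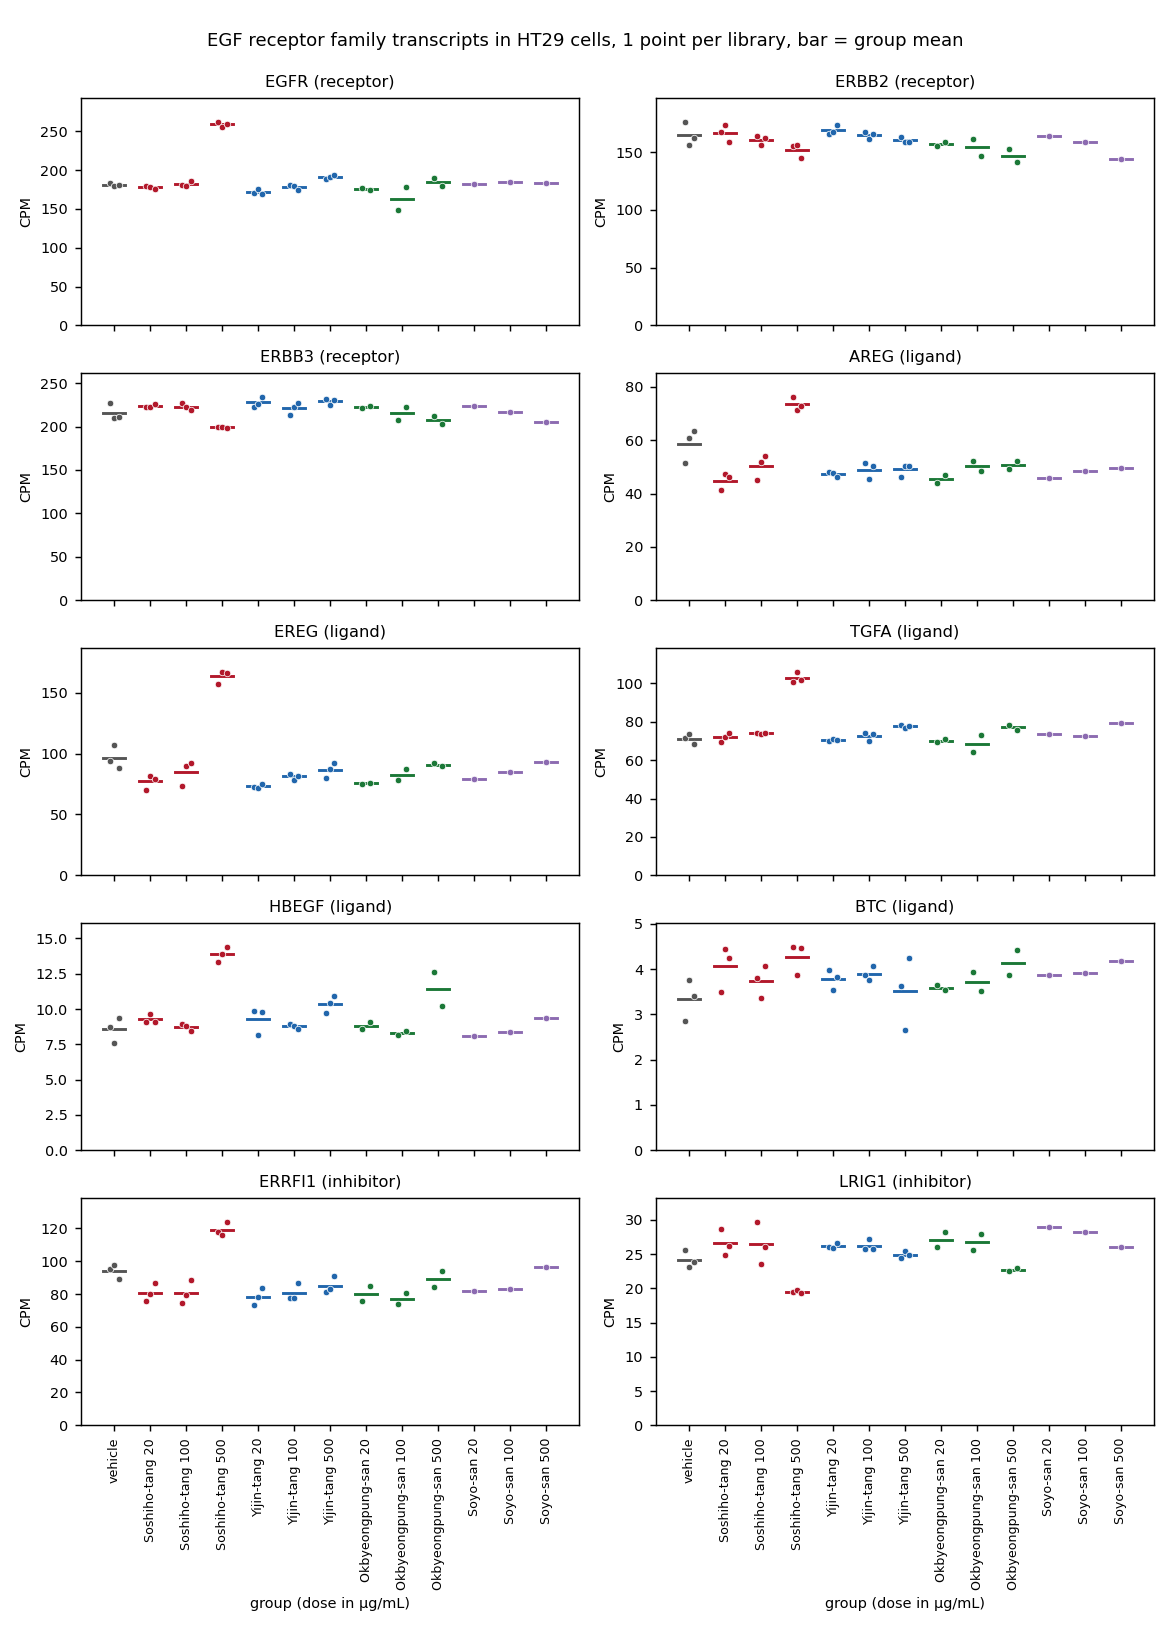
CPM of each of the 10 genes in all 30 libraries (points) with the group mean (bar), for vehicle and then each extract from 20 to 500 µg/mL. The Soshiho-tang libraries at 500 µg/mL lie apart from the other 27 for EREG (157 to 167 CPM, against 70.3 to 107 CPM), AREG, EGFR, TGFA, HBEGF and ERRFI1, which are high there, and for LRIG1 and ERBB3, which are low there. The share of all genes that lie apart in this way is not given here.

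Among the ligands, the difference was greatest for EREG, which encodes epiregulin, a ligand of EGFR and ERBB4. EREG had 157, 167 and 166 CPM in the 3 Soshiho-tang libraries at 500 µg/mL, against 70.3, 81.9 and 79.3 CPM at 20 µg/mL and 93.9, 107 and 88.2 CPM in vehicle. All 3 libraries at 500 µg/mL lay above every other library of the series, the next of which was a vehicle library at 107 CPM. For EREG and the genes below, the share of all genes that stood apart in this way is not given. The log2 fold change at 500 against 20 µg/mL was 1.08 ± 0.08 (SE, n = 3 each; adjusted p = 3.9e-09), a 2.11-fold difference, and against vehicle it was 0.78 ± 0.078 (adjusted p = 1.6e-07), a 1.72-fold difference.

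AREG encodes amphiregulin, a ligand of EGFR alone that the intestinal epithelium makes in quantity. It had 76.2, 71.2 and 73.0 CPM with Soshiho-tang at 500 µg/mL, against 41.2, 47.3 and 46.1 CPM at 20 µg/mL and 51.3, 60.8 and 63.5 CPM in vehicle. The groups did not overlap, and the highest of the other 27 libraries was again a vehicle library, at 63.5 CPM. AREG was 1.63-fold higher at 500 than at 20 µg/mL (log2 0.71 ± 0.071 SE; adjusted p = 3.5e-08) and 1.28-fold higher than in vehicle (log2 0.36 ± 0.069 SE; adjusted p = 2e-04). The ratio of EREG to AREG, each in CPM, was 2.06, 2.34 and 2.27 in the Soshiho-tang libraries at 500 µg/mL and between 1.39 and 1.88 in the other 27, so the neighbours did not change in proportion.

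TGFA, the gene of transforming growth factor alpha, had 101, 106 and 102 CPM with Soshiho-tang at 500 µg/mL, against 69.7, 72.0 and 74.4 CPM at 20 µg/mL and 71.7, 73.5 and 68.3 CPM in vehicle. Here vehicle and 20 µg/mL overlapped, and the 500 µg/mL libraries stood above both. The log2 fold change was 0.52 ± 0.04 against 20 µg/mL (adjusted p = 8.4e-11) and 0.56 ± 0.04 against vehicle (adjusted p = 1.3e-11).

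HBEGF encodes the heparin-binding ligand of EGFR and ERBB4. It had 13.3, 13.9 and 14.4 CPM with Soshiho-tang at 500 µg/mL, against 9.10, 9.66 and 9.09 CPM at 20 µg/mL and 8.71, 7.58 and 9.38 CPM in vehicle. No library of the other groups reached these values, the nearest being an Okbyeongpung-san library at 500 µg/mL with 12.6 CPM. HBEGF was 1.49-fold higher than at 20 µg/mL (log2 0.58 ± 0.082 SE; adjusted p = 4.1e-06) and 1.64-fold higher than in vehicle (log2 0.72 ± 0.081 SE; adjusted p = 5.7e-08).

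BTC, the gene of betacellulin, was the ligand with the lowest counts, between 52 and 111 per library. It had 4.49, 3.86 and 4.46 CPM with Soshiho-tang at 500 µg/mL, against 3.50, 4.44 and 4.25 CPM at 20 µg/mL and 2.85, 3.75 and 3.41 CPM in vehicle. The 500 and 20 µg/mL libraries overlapped, and their difference was not called (log2 0.06, 95% interval -0.21 to 0.33; adjusted p = 0.80). The difference from vehicle was called at 0.39 ± 0.14 (SE; adjusted p = 0.028), but it lost the call when vehicle library 1 was left out (0.26; adjusted p = 0.18), and likewise without vehicle library 3 (0.39; adjusted p = 0.054) or without Soshiho-tang library 1 or library 3 (0.33 and adjusted p = 0.11 for each). It was also lost with DESeq2 (0.39; adjusted p = 0.079), without a filter on low counts (0.36; adjusted p = 0.052) and with only the groups compared in the fit (0.38; adjusted p = 0.067). Its SE was the widest of the 5 ligands.

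Among the receptors, EGFR rose and its partners did not. EGFR had 262, 255 and 260 CPM with Soshiho-tang at 500 µg/mL, against 180, 178 and 176 CPM at 20 µg/mL and 183, 179 and 181 CPM in vehicle. The 3 libraries of each group differed by a few CPM, and the highest of the other 27 libraries reached 194 CPM. EGFR was 1.45-fold higher at 500 than at 20 µg/mL (log2 0.54 ± 0.034 SE; adjusted p = 1.4e-12) and 1.46-fold higher than in vehicle (log2 0.54 ± 0.034 SE; adjusted p = 8.2e-13).

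ERBB3, a receptor with an impaired kinase that signals through its partners, had 199, 200 and 198 CPM with Soshiho-tang at 500 µg/mL, against 223, 223 and 226 CPM at 20 µg/mL and 227, 210 and 211 CPM in vehicle. These 3 libraries were the lowest of the series, the next being at 203 CPM. ERBB3 fell by 0.17 ± 0.037 on the log2 scale against 20 µg/mL (SE; adjusted p = 0.00077) and by 0.09 ± 0.037 against vehicle (adjusted p = 0.044). The call against vehicle was lost without vehicle library 1 (-0.07; adjusted p = 0.10) or without Soshiho-tang library 2 (-0.10; adjusted p = 0.061), and with only the groups compared in the fit (-0.10; adjusted p = 0.19).

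ERBB2, the family member with no known ligand of its own, had 155, 156 and 145 CPM with Soshiho-tang at 500 µg/mL, against 167, 173 and 159 CPM at 20 µg/mL and 176, 156 and 162 CPM in vehicle. The difference from 20 µg/mL was called at -0.13 ± 0.043 on the log2 scale (SE; adjusted p = 0.025) and that from vehicle was not (-0.09 ± 0.043; adjusted p = 0.086). The first call was lost without Soshiho-tang library 3 at 500 µg/mL, without library 2 at 20 µg/mL (-0.10 and adjusted p = 0.13 for each) or without library 1 at 20 µg/mL (-0.13; adjusted p = 0.072). Unlike for ERBB3, values of other groups reached as low as 141 CPM.

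The inhibitors moved in opposite directions. ERRFI1 had 118, 116 and 124 CPM with Soshiho-tang at 500 µg/mL, against 75.9, 79.8 and 86.9 CPM at 20 µg/mL and 95.1, 97.8 and 89.4 CPM in vehicle. It was 1.47-fold higher at 500 than at 20 µg/mL (log2 0.56 ± 0.064 SE; adjusted p = 3.9e-07) and 1.29-fold higher than in vehicle (log2 0.37 ± 0.063 SE; adjusted p = 5.9e-05). LRIG1 had 19.4, 19.7 and 19.3 CPM with Soshiho-tang at 500 µg/mL, against 28.7, 24.9 and 26.2 CPM at 20 µg/mL and 25.6, 23.1 and 23.9 CPM in vehicle. Its log2 fold change was -0.45 ± 0.07 against 20 µg/mL (SE; adjusted p = 1.6e-05) and -0.29 ± 0.07 against vehicle (adjusted p = 0.0014), and no library of another group was under 22.5 CPM. The exons of LRIG1 share 12.9% of their bases with SLC25A26 on the opposite strand, the overlap of the other genes with a neighbour is at most 5.53%, and the sources do not state whether strand was used in counting, so the LRIG1 value could hold reads of that neighbour.

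Per kilobase of merged exon, the scale on which levels of different genes may be compared, AREG was the most abundant of these transcripts with Soshiho-tang at 500 µg/mL (44.6 CPM per kb), followed by EREG (28.5) and ERRFI1 (28.4), ERBB3 (22.0), TGFA (20.8) and EGFR (20.7). In vehicle the order was AREG (35.5 CPM per kb), ERBB3 (23.9), ERRFI1 (22.5), EREG (16.9), ERBB2 (16.0), EGFR (14.5) and TGFA (14.3). HBEGF, LRIG1 and BTC were the lowest in both, between 1.52 and 4.61 CPM per kb with Soshiho-tang at 500 µg/mL and between 1.19 and 3.44 CPM per kb in vehicle. These levels divide by all annotated exons of a gene and do not account for which isoform is used.

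**Figure D2:**
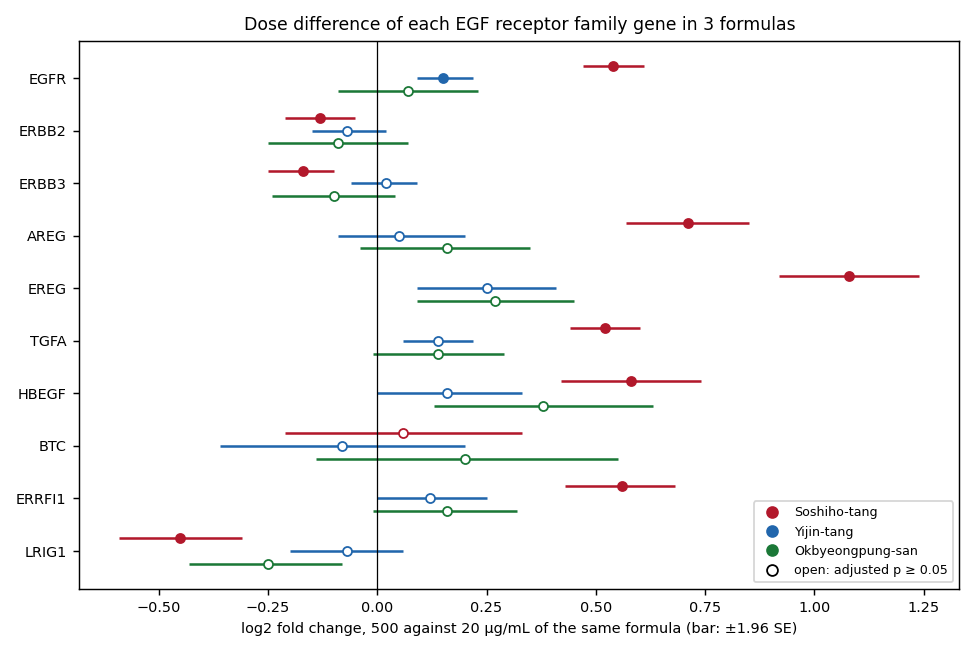
Log2 fold change of each gene at 500 against 20 µg/mL of the same extract, with its 95% interval, for Soshiho-tang (n = 3 each), Yijin-tang (n = 3 each) and Okbyeongpung-san (n = 2 each); filled points passed an adjusted p of 0.05. Soshiho-tang has 9 filled points between -0.45 and 1.08, Yijin-tang has 1 (EGFR, 0.15) and Okbyeongpung-san has none.

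The differences of Soshiho-tang were called at 500 against 20 µg/mL and not at 100 against 20 µg/mL, where smaller steps could go uncalled. At 20, 100 and 500 µg/mL, EGFR averaged 178 ± 1.78, 182 ± 3.92 and 259 ± 3.70 CPM (SD, n = 3 each), after 181 ± 1.99 CPM in vehicle. EREG averaged 77.2 ± 6.08, 85.1 ± 10.4 and 163 ± 5.37 CPM, after 96.4 ± 9.66 CPM in vehicle. At 100 against 20 µg/mL none of the 10 genes was called by edgeR or DESeq2, and 0% of all genes were by either (474 of 15882 at an unadjusted p under 0.05 in edgeR). In the other 27 libraries the medians were 81.9 CPM for EREG, 48.6 for AREG, 73.4 for TGFA, 8.97 for HBEGF, 180 for EGFR, 82.9 for ERRFI1, 25.9 for LRIG1 and 223 for ERBB3. The widest of the differences at 100 against 20 µg/mL was 0.17 for AREG, with an interval of 0.03 to 0.32 on the log2 scale and an adjusted p of 1. In that comparison EREG had 73.2, 89.6 and 92.4 CPM at 100 µg/mL, against 70.3, 81.9 and 79.3 CPM at 20 µg/mL, and the groups overlapped. The EREG mean was also higher at 100 than at 20 µg/mL with Yijin-tang (81.2 against 72.9 CPM) and Okbyeongpung-san (82.6 against 75.5 CPM), neither called.

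At the lower doses the ligands EREG and AREG and the inhibitor ERRFI1 lay under vehicle. This was not particular to those doses. At 500 µg/mL AREG was at -0.22 with Yijin-tang (called) and -0.18 with Okbyeongpung-san on the log2 scale. EREG was at -0.12 and -0.06 there, and ERRFI1 at -0.12 and -0.05, none called. With Soyo-san at 500 µg/mL AREG was at -0.23, EREG at -0.05 and ERRFI1 at 0.04, not tested. With Soshiho-tang at 20 µg/mL 3 genes were called, all lower, where 16.9% of genes were called, 10.6% higher and 6.34% lower: AREG at -0.35 ± 0.071 on the log2 scale (SE; adjusted p = 0.0013), EREG at -0.29 ± 0.08 (adjusted p = 0.016) and ERRFI1 at -0.19 ± 0.064 (adjusted p = 0.042). With Yijin-tang at 20 µg/mL the 3 genes called were the same (17% of genes called, 10.3% higher and 6.66% lower), at -0.28 for AREG (adjusted p = 0.0082), -0.38 for EREG (adjusted p = 0.003) and -0.24 for ERRFI1 (adjusted p = 0.012). At 100 µg/mL ERRFI1 alone was called with Soshiho-tang (-0.19; adjusted p = 0.045; 18.2% of genes called, 11.1% higher and 7.05% lower), and AREG and ERRFI1 with Yijin-tang (-0.22 and -0.19; adjusted p = 0.028 and 0.040; 18.4% of genes called, 11.1% higher and 7.37% lower). The comparisons at 20 and 100 µg/mL of these 2 extracts share the 3 vehicle libraries, so extract and library set cannot be told apart in them. Each of the ERRFI1 calls at 100 µg/mL was lost without vehicle library 1 or 2, as was that of Soshiho-tang at 20 µg/mL (adjusted p between 0.081 and 0.10), and each was also lost without library 1 or 2 of its own extract group (adjusted p between 0.084 and 0.15). AREG lost its call with Yijin-tang at 100 µg/mL without vehicle library 2 or 3 or library 2 of that dose (adjusted p between 0.060 and 0.12). EREG lost its call with Soshiho-tang at 20 µg/mL without library 1 of that dose (-0.25; adjusted p = 0.058), and so did ERRFI1 with Yijin-tang at 20 µg/mL (-0.21; adjusted p = 0.052).

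**Figure D3:**
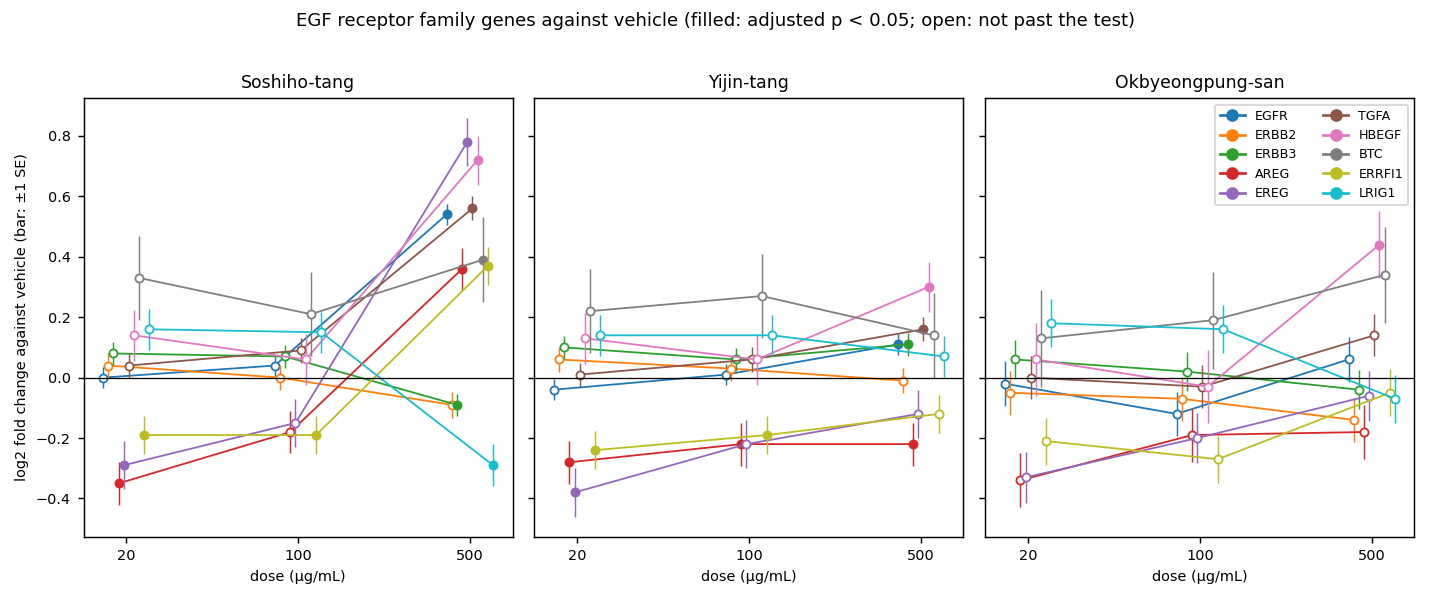
Log2 fold change of each gene against vehicle at 20, 100 and 500 µg/mL for Soshiho-tang, Yijin-tang and Okbyeongpung-san (1 panel each; bars are 1 SE). AREG, EREG and ERRFI1 lie below 0 at 20 µg/mL in all 3 panels, and at 500 µg/mL they lie above 0 with Soshiho-tang alone (0.36, 0.78 and 0.37).

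Yijin-tang at 500 µg/mL gave smaller differences. Against its own 20 µg/mL dose only EGFR was called, where 1.86% of genes were called, 0.724% higher and 1.13% lower. EGFR had 188, 191 and 194 CPM at 500 µg/mL, against 171, 176 and 169 CPM at 20 µg/mL, and the groups did not overlap (log2 0.15 ± 0.034 SE; adjusted p = 0.011). That call was lost without library 2 or 3 at 500 µg/mL or library 1 or 3 at 20 µg/mL (adjusted p between 0.070 and 0.097). EREG had 80.2, 87.5 and 92.3 CPM at 500 µg/mL, against 72.8, 71.3 and 74.7 CPM at 20 µg/mL. These did not overlap either, but the difference of 0.25 (95% interval 0.09 to 0.41) was not called (adjusted p = 0.15). At 100 against 20 µg/mL of Yijin-tang none of the 10 was called by edgeR or DESeq2, where 0% of genes were by edgeR (509 of 15882 at an unadjusted p under 0.05).

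Against vehicle, 5 genes were called with Yijin-tang at 500 µg/mL, 4 higher and 1 lower, where 21% of genes were called, 12.7% higher and 8.39% lower. The higher genes were EGFR (log2 0.11; adjusted p = 0.020), ERBB3 (0.11; adjusted p = 0.025), TGFA (0.16; adjusted p = 0.0064) and HBEGF (0.30; adjusted p = 0.011), and AREG was lower (-0.22; adjusted p = 0.026). HBEGF had 9.75, 10.4 and 10.9 CPM, against 8.71, 7.58 and 9.38 CPM in vehicle, with no overlap, whereas ERBB3 had 232, 225 and 231 CPM, against 227, 210 and 211 CPM, and overlapped. Each of the 5 calls was lost when at least 1 vehicle library was left out: without vehicle library 3, EGFR (0.09; adjusted p = 0.11), ERBB3 (0.08; adjusted p = 0.19), AREG (-0.18; adjusted p = 0.10) and TGFA (0.11; adjusted p = 0.085), and without vehicle library 2, HBEGF (0.21; adjusted p = 0.078). EGFR and ERBB3 were also lost without vehicle library 2 or any Yijin-tang library at 500 µg/mL (adjusted p between 0.064 and 0.15), AREG without vehicle library 2 or Yijin-tang library 1, and HBEGF without Yijin-tang library 3 (adjusted p between 0.054 and 0.099).

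The extracts were compared directly at the matched dose of 500 µg/mL. Between Soshiho-tang and Yijin-tang, 8 of the 10 genes were called, 6 higher with Soshiho-tang and 2 lower, where 12.9% of genes were called, 6.54% higher and 6.38% lower. EREG had 157, 167 and 166 CPM with Soshiho-tang and 80.2, 87.5 and 92.3 CPM with Yijin-tang, a 1.88-fold difference (log2 0.91 ± 0.079 SE; adjusted p = 9.9e-08). The other log2 differences called were 0.58 for AREG (adjusted p = 1.8e-06), 0.48 for ERRFI1 (adjusted p = 7.4e-06), 0.43 for EGFR (adjusted p = 2.7e-10), 0.42 for HBEGF (adjusted p = 0.00048), 0.41 for TGFA (adjusted p = 2.2e-08), -0.21 for ERBB3 (adjusted p = 0.00019) and -0.36 for LRIG1 (adjusted p = 0.00061). None of these 8 calls was lost when any 1 library was left out. ERBB2 (-0.08, 95% interval -0.17 to 0; adjusted p = 0.23) and BTC (0.25, 95% interval -0.03 to 0.53; adjusted p = 0.28) were not called. The rise at 500 over 20 µg/mL was larger with Soshiho-tang for the same 6 genes by a test of the difference between the dose effects, in which 8 genes were called where 4.58% of genes were called, 2.15% higher and 2.42% lower.

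Okbyeongpung-san, with 2 libraries per dose, had less power in simulated data on this design. There 44% of genes changed 1.3-fold and 80% of those changed 1.5-fold were recovered at 500 against 20 µg/mL, against 78% and 96% for Soshiho-tang. The simulation changed 50 genes per fold, a smaller share than was called with Soshiho-tang, and held no batch difference. Its rates are therefore not the power of the tests on the real counts. At 500 µg/mL against vehicle HBEGF alone was called, where 4.38% of 15762 genes were called, 2.19% in each direction. It had 12.6 and 10.2 CPM, against 8.71, 7.58 and 9.38 CPM in vehicle (log2 0.44 ± 0.11 SE; adjusted p = 0.047). The library at 12.6 CPM is of batch E, as is vehicle, and the one at 10.2 CPM is of batch D, as the sample titles name them without saying what a batch is. With a batch term the log2 difference was 0.47 (adjusted p = 0.11), and without the first of these libraries it was 0.28 (adjusted p = 0.42). The call was also lost without the second (0.57; adjusted p = 0.12) and without vehicle library 2 (0.37; adjusted p = 0.064) or 3 (0.50; adjusted p = 0.080).

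At 500 against 20 µg/mL of Okbyeongpung-san none of the 10 genes was called by edgeR or DESeq2, where 0.558% of genes were by edgeR, 0.247% higher and 0.311% lower. EREG had 91.9 and 89.5 CPM, against 75.2 and 75.9 CPM (log2 0.27, 95% interval 0.09 to 0.45; adjusted p = 0.40), and the difference was 0.29 within batch E and 0.24 within batch D. HBEGF differed by 0.38 (0.13 to 0.63; adjusted p = 0.39), by 0.55 within batch E and 0.16 within batch D. EGFR differed by 0.07, with an interval of -0.09 to 0.23 that does not reach the 0.54 seen with Soshiho-tang. LRIG1 had 22.5 and 22.9 CPM, against 26.0 and 28.2 CPM (-0.25, -0.43 to -0.08; adjusted p = 0.41). At 100 and 20 µg/mL against vehicle none of the 10 was called, where 0.108% (0.0444% higher, 0.0634% lower) and 0.273% (0.14% higher, 0.133% lower) of genes were, 3 and 4 of the 10 had an unadjusted p under 0.05, and DESeq2 called 0 and 2 of them. At 100 against 20 µg/mL none was called by either tool, where 0% of genes were by edgeR (369 of 15762 at an unadjusted p under 0.05).

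Soyo-san had 1 library per dose and no test was made. Its libraries are all of batch D, whereas those of vehicle, Soshiho-tang and Yijin-tang are all of batch E. Extract and batch therefore cannot be told apart where Soyo-san is set beside these groups. At 20, 100 and 500 µg/mL EREG had 78.7, 85.1 and 93.0 CPM, ERRFI1 had 81.9, 83.3 and 96.3 CPM and AREG had 46.0, 48.3 and 49.6 CPM. EGFR had 182, 185 and 184 CPM at these doses, within 0.04 of the vehicle mean on the log2 scale. At 500 µg/mL the EREG level was 0.24 and the HBEGF level 0.21 above that of the 20 µg/mL library on the log2 scale, and neither reached the range of Soshiho-tang at 500 µg/mL.

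Ranked by group mean, EREG was highest with Soshiho-tang at 500 µg/mL (163 CPM), followed by vehicle (96.4 CPM) and by Soyo-san (93.0 CPM), Okbyeongpung-san (90.7 CPM) and Yijin-tang (86.7 CPM) at 500 µg/mL, and lowest with Yijin-tang at 20 µg/mL (72.9 CPM). The Soshiho-tang libraries at 500 µg/mL did not overlap vehicle, and the vehicle libraries overlapped those of the other 3 extracts at that dose. EGFR was highest with Soshiho-tang (259 CPM) and then Yijin-tang (191 CPM) at 500 µg/mL, whose libraries overlapped those of Okbyeongpung-san at 500 µg/mL. Okbyeongpung-san at that dose and the single Soyo-san library at 100 µg/mL were both at 185 CPM. EGFR was lowest with Okbyeongpung-san at 100 µg/mL (163 CPM), where one library had 148 CPM and the other 178 CPM.

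Across the 13 group means of log2 CPM, the genes of this set that ran most alike were EGFR and TGFA (Pearson r = 0.97) and, at r = 0.95 each, EREG with AREG and EREG with ERRFI1, while LRIG1 ran against HBEGF (r = -0.91). These are descriptions over 13 points with shared normalisation, of which Soshiho-tang at 500 µg/mL is the extreme one. Among 11610 other genes, the pattern of EREG was most like those of PLCD3 (r = 0.97), HYOU1 and AKAP12 (0.967 each), that of EGFR like PODXL (0.982), UBASH3B (0.967) and CALU (0.966), and that of ERRFI1 like HYOU1 (0.979), PLEC (0.97) and SLC7A5 (0.969). AREG was most like SARS1 (0.972) and HBEGF like ACSL5 (0.961).

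In the lists of other pathway genes, the genes called went in both directions. Of the other EGF-family ligands and the receptor ERBB4, 2 of 7 genes passed the filter (EGF and NRG4), and ERBB4, NRG1, NRG2, NRG3 and EPGN were at or near 0, none above 0.197 CPM in any library. EGF itself was called with Okbyeongpung-san at 500 µg/mL, at 1.95 CPM, against 1.02 CPM in vehicle (log2 0.92 ± 0.23 SE; adjusted p = 0.042). It lay between 0.708 and 2.13 CPM over all libraries, and that group holds 2 libraries, 1 of each batch. EGF was not called against 20 µg/mL of that extract, and the call was not tried in other settings. With Soshiho-tang and Yijin-tang at 500 µg/mL against vehicle EGF and NRG4 were not called, at medians of 0.42 and 0.16. Of 6 genes for ligand shedding, 2 were higher and 1 lower with Soshiho-tang at 500 µg/mL, both against 20 µg/mL and against vehicle. Against 20 µg/mL 26.8% of all genes were called, 13.3% higher and 13.5% lower. Against vehicle 39.2% were, 21% higher and 18.3% lower. The metalloproteases rose: ADAM17, which cuts most of the ligands of EGFR, by 0.28 against 20 µg/mL on the log2 scale (adjusted p = 0.00021), and ADAM10, which cuts EGF and betacellulin, by 0.11 (adjusted p = 0.044). RHBDL2, a rhomboid protease, fell to 9.54 CPM, against 16.9 CPM at 20 µg/mL and 17.7 CPM in vehicle (-0.83 ± 0.089 SE; adjusted p = 4.2e-08 against 20 µg/mL). The median log2 fold change of these 6 was 0.04 against 20 µg/mL, near the -0.01 of all genes.

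**Figure D4:**
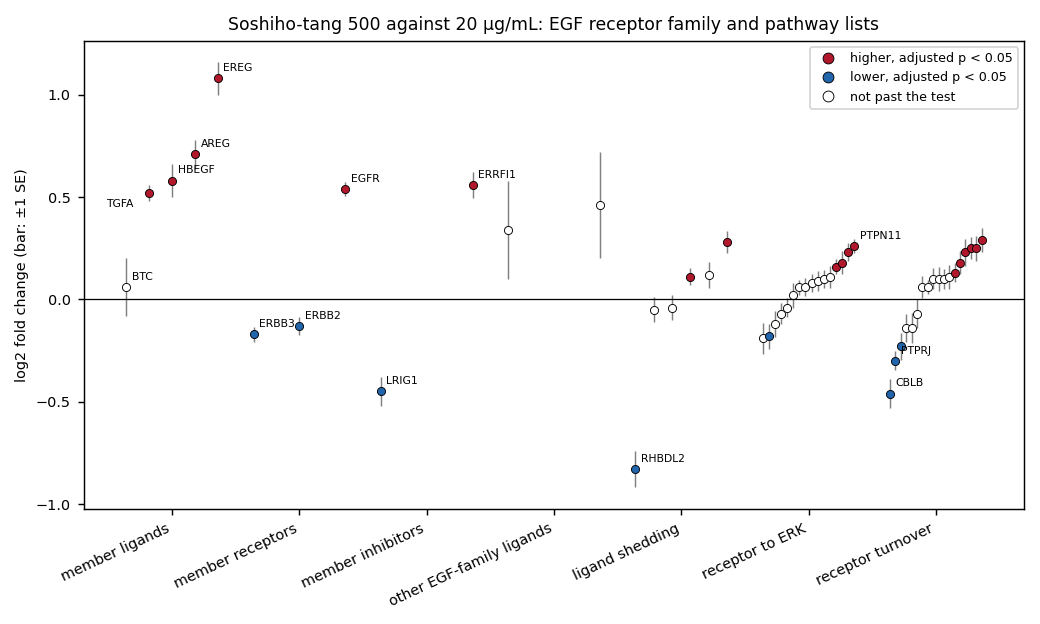
Log2 fold change at 500 against 20 µg/mL of Soshiho-tang for the 10 genes and for the lists of other ligands, shedding, receptor-to-ERK signalling and receptor turnover, with bars of 1 SE. The ligands, EGFR and ERRFI1 reach up to 1.08, RHBDL2 is lowest at -0.83, and most genes of the other lists lie close to 0.

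Of 16 genes that carry the signal from the receptor to ERK, 4 were higher and 1 lower with Soshiho-tang at 500 against 20 µg/mL (median 0.07), a share near the 26.8% of all genes called there, 13.3% higher and 13.5% lower. Against vehicle 9 were higher and 2 lower (median 0.12), where 39.2% of all genes were called, 21% higher and 18.3% lower. PTPN11, the phosphatase SHP2 that helps activate RAS, had a mean of 327 CPM, against 274 CPM at 20 µg/mL and 258 CPM in vehicle (log2 0.26 ± 0.035 SE; adjusted p = 2.4e-06 against 20 µg/mL). The adaptor SHC1 (0.16; adjusted p = 0.002), HRAS (0.18; adjusted p = 0.017) and the kinase MAP2K1 (0.23; adjusted p = 0.00021) also rose, and the kinase MAPK3, or ERK1, fell (-0.18; adjusted p = 0.025). With Yijin-tang at 500 µg/mL 6 were higher and 2 lower against vehicle, where 21% of all genes were called, 12.7% higher and 8.39% lower. Against its 20 µg/mL dose edgeR called none of the 16, where 1.86% of all genes were called, and 4 had an unadjusted p under 0.05. Among these were SHC1 (log2 0.08; adjusted p = 0.32), HRAS (0.13; adjusted p = 0.34) and PTPN11 (0.07; adjusted p = 0.40). With Okbyeongpung-san at 500 µg/mL 1 was higher and 1 lower against vehicle, where 4.38% of all genes were called, 2.19% in each direction. The lower gene was MAPK3 (log2 -0.39, adjusted p = 0.021).

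Of 18 genes of receptor turnover, 6 were higher and 3 lower with Soshiho-tang at 500 against 20 µg/mL (median 0.10), where 26.8% of all genes were called, 13.3% higher and 13.5% lower. Against vehicle 8 were higher and 5 lower (median 0.08), where 39.2% were called, 21% higher and 18.3% lower. The ubiquitin ligases that mark EGFR for degradation split: CBL rose by 0.18 on the log2 scale (adjusted p = 0.021), whereas CBLB (-0.46 ± 0.072 SE; adjusted p = 1.6e-05) and CBLC (-0.23; adjusted p = 0.0073) fell. PTPRJ, a phosphatase that acts on EGFR, fell to 50.4 CPM, against 62.2 CPM at 20 µg/mL (-0.30 ± 0.047; adjusted p = 1.7e-05). The genes of suppressors of cytokine signalling SOCS4 (0.25; adjusted p = 0.0023) and SOCS5 (0.29; adjusted p = 0.00035) rose. CBLB was also the only turnover gene called with Yijin-tang at 500 against 20 µg/mL (-0.31 ± 0.07; adjusted p = 0.012), where 1.86% of all genes were called. Against vehicle SOCS4 was higher at 500 µg/mL with Soshiho-tang (0.63; adjusted p = 4e-09), Yijin-tang (0.46; adjusted p = 5.6e-06) and Okbyeongpung-san (0.39; adjusted p = 0.048), 3 comparisons that share the vehicle libraries.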

How the data were processed

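RNA-seq expected counts per gene were deposited by the authors as 1 table of 60675 Ensembl genes in 30 HT29 libraries, not normalised between libraries; between 9.52% and 11.5% of a library's values were not whole. The submitters' processing notes name RSEM 1.3.3, STAR 2.7.3a, Trim Galore 0.6.5 and FastQC 0.11.9. The annotation release is not given in the sources used here. RSEM divides reads between genes that share sequence, which makes overlapping genes less certain. Symbols were found for 56558 identifiers, and coordinates are those of GENCODE release 29 on GRCh38.

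Expected counts were rounded and analysed in R 4.3.3 with edgeR 4.0.16: filterByExpr, TMM scaling (factors 0.93 to 1.04) and the robust quasi-likelihood F-test, with p-values adjusted by Benjamini-Hochberg over all genes. Adjusted p-values of single genes are from this test. Vehicle, Soshiho-tang and Yijin-tang shared a fit (21 libraries, 15882 genes, coefficient of variation 4.7%), and vehicle and Okbyeongpung-san another (9 libraries, 15762 genes, 7%). CPM were scaled by TMM over all 30 libraries, so ratios of CPM differ slightly from fitted folds. SEs were derived from the F statistic, and 95% intervals assume a normal estimate. Groups and doses are those of the labels, as are replicate numbers. The 10 genes, the pathway lists, the rule for naming the 4 list genes of smallest adjusted p per comparison, and the motifs were chosen with earlier results of these data known. List genes given outside that rule were chosen after their values were seen: for Soshiho-tang at 500 against 20 µg/mL ADAM10, ADAM17, SHC1, HRAS, MAP2K1, MAPK3, CBL, CBLC, SOCS4 and SOCS5, and for Yijin-tang at 500 against 20 µg/mL PTPN11. The test was tried on simulated counts. RLE scaling, DESeq2 1.42.0, no filter, other sets of libraries, a replicate block, a batch term and leaving out each library were tried. Wortmannin libraries named in the design text are not analysed here.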

Additional observations from a re-analysis of the deposited data

Results flagged for a closer look

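For 8 genes the rise or fall at 500 over 20 µg/mL differed between Soshiho-tang and Yijin-tang, by a test of the difference between the log2 dose effects in edgeR's quasi-likelihood fit (3 libraries per group, adjusted over all genes). In that test 727 of the 15882 genes tested were called (4.58%), 2.15% higher and 2.42% lower. EREG led with a difference of 0.83 ± 0.11 (SE; adjusted p = 0.00011), from 1.08 with Soshiho-tang and 0.25 with Yijin-tang. AREG differed by 0.65 ± 0.10 (adjusted p = 0.00017), from 0.71 and 0.05. EGFR differed by 0.39 ± 0.048 (adjusted p = 4.8e-06), from 0.54 and 0.15, and TGFA by 0.37 ± 0.057 (adjusted p = 8.3e-05), from 0.52 and 0.14. ERRFI1 differed by 0.44 ± 0.092 (adjusted p = 0.0043), from 0.56 and 0.12. LRIG1 differed by -0.38 ± 0.098 (adjusted p = 0.018), from -0.45 and -0.07. HBEGF (0.41; adjusted p = 0.038) and ERBB3 (-0.19; adjusted p = 0.031) were also called. HBEGF lost its call with DESeq2 (0.42, adjusted p = 0.081), and both lost theirs without a filter on low counts (adjusted p = 0.055 for HBEGF and 0.091 for ERBB3). DESeq2 thus called 7 of the 10 genes, and 709 over all genes. The fit without a filter called 6 of the 10, and 783 over all genes. HBEGF kept its call without library 1 of Soshiho-tang at 500 µg/mL, library 2 of either extract at 20 µg/mL or library 3 of Yijin-tang at 500 µg/mL, and lost it without any other of the 12 libraries (adjusted p between 0.062 and 0.12). ERBB3 lost its call without any 1 library except library 3 of Yijin-tang at 20 µg/mL, the adjusted p lying between 0.057 and 0.11. LRIG1 lost its call without library 1 of Soshiho-tang at 20 µg/mL (-0.32; adjusted p = 0.075) or library 2 of Yijin-tang at 500 µg/mL (-0.36; adjusted p = 0.055). ERBB2 (-0.06; adjusted p = 0.69) and BTC (0.14; adjusted p = 0.81) were not called.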

How the results depend on the processing

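Over 17 comparisons, many of which share libraries, 50 calls of the 10 genes were made. Of these, 30 were kept in every setting tried, 20 were lost in at least 1, and none changed sign. The number of the 10 genes called, with 1 library left out, was 7 to 10 for Soshiho-tang at 500 µg/mL against vehicle, 8 to 9 against its 20 µg/mL dose, 8 in each case against Yijin-tang at 500 µg/mL, and 5 to 7 for the difference of dose effects. Over all genes, the numbers called in these comparisons were 5175 to 6535, 3392 to 3594, 1493 to 1631 and 551 to 631. Likewise it was 0 to 2 for Soshiho-tang at 100 µg/mL and 1 to 4 at 20 µg/mL against vehicle, 1 to 5, 0 to 2 and 2 to 4 for Yijin-tang at 500, 100 and 20 µg/mL against vehicle, 0 to 1 for Yijin-tang at 500 against 20 µg/mL, and 0 to 2 for Okbyeongpung-san at 500 and at 20 µg/mL against vehicle.

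With only the libraries of the 2 groups compared in the fit, 0 genes were called for Soshiho-tang at 100 µg/mL against vehicle (main value 1) and 1 at 20 µg/mL (3), 0, 0 and 1 for Yijin-tang at 500, 100 and 20 µg/mL (5, 2 and 3), 3 for Yijin-tang at 500 against 20 µg/mL (1), 0 for Okbyeongpung-san at 500 µg/mL against vehicle (1) and 3 against its 20 µg/mL dose (0). Without a filter on low counts, 3 were called for Soshiho-tang at 100 µg/mL against vehicle, 3 for Yijin-tang at 500 µg/mL against vehicle and 2 against its 20 µg/mL dose, and 1 and 2 for Okbyeongpung-san at 100 and 20 µg/mL against vehicle (0 and 0). With all 30 libraries in the fit the numbers were 3 for Yijin-tang at 500 µg/mL against vehicle, 0 against 20 µg/mL, and 3, 1 and 2 for Okbyeongpung-san at 500, 100 and 20 µg/mL against vehicle. DESeq2 gave 2 for Yijin-tang at 500 against 20 µg/mL and 0 and 2 for Okbyeongpung-san at 500 and 20 µg/mL against vehicle, and a batch term gave 0 at 500 µg/mL. Settings added after the data were seen gave 2 for Yijin-tang at 500 against 20 µg/mL without vehicle in the fit, and 0 for Okbyeongpung-san at 500 µg/mL against vehicle without library 2 of its 100 µg/mL dose, whose 2 libraries differed from each other (chi-square per degree of freedom 10.4). For each of these the cause was not tested, other than that fewer or more libraries and genes enter.

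Over all genes, the fit of only the groups compared called 559 and 362 genes for Soshiho-tang at 100 and 20 µg/mL against vehicle (main values 2886 and 2691), 1040, 574 and 498 for Yijin-tang at 500, 100 and 20 µg/mL (3343, 2930 and 2697), 869 for Yijin-tang at 500 against 20 µg/mL (295), 1352 for the difference of dose effects (727) and 216 and 938 for Okbyeongpung-san at 500 µg/mL against vehicle and against 20 µg/mL (690 and 88). Without vehicle in the fit it was 726 for Yijin-tang at 500 against 20 µg/mL and 1339 for the difference of dose effects. Okbyeongpung-san against vehicle moved most: at 500, 100 and 20 µg/mL it had 690, 17 and 43 genes, but 1431, 431 and 1115 without a filter, 155, 6 and 5 with a batch term, and 2962, 1453 and 2426 with all 30 libraries in the fit.

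Pairing by replicate number was weak: same-numbered libraries had correlations of deviations between -0.08 and 0.09. Each library still correlated best with its own number for Yijin-tang at 500 and 20 µg/mL (0.05 to 0.09). The same held for Okbyeongpung-san at 500 and at 100 against 20 µg/mL (0.01), where number and batch go together. For Yijin-tang at 100 against 20 µg/mL and at 500 µg/mL against vehicle it held for 2 of 3 libraries, and elsewhere for at most 1. With a replicate block 2 genes were called for Okbyeongpung-san at 500 µg/mL against vehicle and 1 at 20 µg/mL. Over all genes the block called 468 at 20 µg/mL and 90 at 100 µg/mL, against 43 and 17 without it. ERBB3 with Soshiho-tang at 500 µg/mL against vehicle missed the threshold with the block (adjusted p = 0.051).

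Some uncalled log2 differences changed sign. With 1 library left out, BTC lay between -0.03 and 0.14 for Soshiho-tang at 500 against 20 µg/mL, between -0.03 and 0.25 for Yijin-tang at 500 µg/mL against vehicle and between -0.23 and 0.05 against 20 µg/mL. ERBB2 lay between -0.07 and 0.03 for Yijin-tang at 500 µg/mL against vehicle, and ERBB3 between 0 and 0.03 against 20 µg/mL. For Okbyeongpung-san at 500 µg/mL against vehicle ERBB3 lay between -0.06 and 0 (0 with the replicate block), EREG between -0.13 and 0.02 and ERRFI1 between -0.13 and 0.03. For Soyo-san at 500 µg/mL, the EGFR difference from vehicle was 0.06 with RLE scaling and 0.03 with TMM. BTC, with 52 to 111 counts per library, is the gene most limited by depth, and 2 libraries per dose limit Okbyeongpung-san.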

Other observations

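ERRFI1 was highest in the library numbered 3 in 9 of the 9 extract groups with at least 2 libraries. It was lowest in library 1 in 4 of those that hold a library 1. The Okbyeongpung-san groups hold only library 2, of batch E, and library 3, of batch D, so number and batch cannot be told apart there. With Soshiho-tang at 500 µg/mL library 3 had 124 CPM, and libraries 1 and 2 had 118 and 116 CPM. With Yijin-tang at 100 µg/mL library 3 had 87.0 CPM, and the others had 77.9 and 77.5 CPM. In vehicle, library 3 was the lowest, at 89.4 CPM. The other 9 genes had library 3 as the highest in 2 to 5 of these 9 groups. The pattern was noticed among 10 genes, and its part in the ERRFI1 contrasts between doses and with vehicle was not tested. Each extract dose holds a library 3, as does vehicle. The share of all genes with such a pattern is not given here.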
